A study of Mus musculus with 18 samples.

Results

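Retired breeders, mice kept after their use in breeding, were compared with virgin mice of the same C57BL/6 strain in the epithelium of the mammary gland. The comparison holds 9 of the 18 libraries of the series: 3 from retired breeders and 6 from virgin females, chosen by the reproductive stage in their labels. Each of the groups gave 1 library of cells labelled stem, luminal progenitor and mature luminal, so that a cell type had 1 retired library and 2 virgin libraries, from mice of 3 and 9 weeks. The labels give no age for the retired breeders and no number of litters, and all mice were female. Nor do they say how animals and libraries relate, or if 1 animal or a pool gave all 3 cell types, so every p-value below measures only the spread between these libraries. Cell type entered each test as a block, that is, libraries were compared within their cell type. The 9 libraries of pregnant mice (days 10, 16 and 19, same strain and cell types) serve only to sort tiles and promoters by level and as a reference for a few values.

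Methylation of cytosine in CpG dinucleotides is copied when cells divide and can outlast the signal that set it. In the mammary gland, pregnancy and lactation drive rounds of growth and regression of the epithelium, which comes back to a duct system resembling that of a virgin. CpG-rich promoters mostly lack methylation. Exceptions include imprinted genes, where 1 parental copy is methylated, and genes on the X chromosome of females, where the promoters of the inactive copy are methylated. Reduced representation bisulfite sequencing cuts DNA at CCGG and reads methylation next to the cuts, so it covers mainly CpG-rich DNA.

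Promoters of 7 genes with large differences between groups that did not overlap are printed first, with Cdkn2a, because they show where the measured CpGs lie. Each is the RefSeq sequence of the GRCm38.p6 table, from 250 bases before to 50 bases after a gene start, 5′ to 3′ in the direction of the gene. CpGs measured in all 9 libraries are in capitals. No mm9 genome was used here, so each sequence was placed on the files by the spacing of its CpGs, and places are given as the mm9 span of the measured CpGs. These spans are chrX:68468237-68468294 (plus strand) for Mtm1, chrX:50341162-50341272 (plus) for Hprt, chrX:160514047-160514182 (minus) for Siah1b, chrX:39421354-39421537 (plus) for Xiap and chrX:132602757-132602830 (minus) for Bex2. On autosomes they are chr14:33014961-33015195 (plus) for Parg, chr11:22871902-22872011 (plus) for Zrsr1 and chr4:88940539-88940706 (minus) for Cdkn2a, which lies next to a tile described below.
Mtm1: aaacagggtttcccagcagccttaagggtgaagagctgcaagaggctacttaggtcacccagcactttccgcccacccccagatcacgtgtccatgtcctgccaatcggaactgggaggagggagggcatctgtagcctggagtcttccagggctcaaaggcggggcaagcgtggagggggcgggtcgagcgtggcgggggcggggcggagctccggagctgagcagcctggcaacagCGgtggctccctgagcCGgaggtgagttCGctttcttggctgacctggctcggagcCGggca
Hprt: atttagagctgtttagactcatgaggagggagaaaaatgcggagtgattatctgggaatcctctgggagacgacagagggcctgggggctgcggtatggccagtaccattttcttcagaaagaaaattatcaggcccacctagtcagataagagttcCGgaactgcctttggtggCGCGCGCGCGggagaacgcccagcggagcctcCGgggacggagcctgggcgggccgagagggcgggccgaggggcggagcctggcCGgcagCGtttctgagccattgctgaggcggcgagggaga
Siah1b: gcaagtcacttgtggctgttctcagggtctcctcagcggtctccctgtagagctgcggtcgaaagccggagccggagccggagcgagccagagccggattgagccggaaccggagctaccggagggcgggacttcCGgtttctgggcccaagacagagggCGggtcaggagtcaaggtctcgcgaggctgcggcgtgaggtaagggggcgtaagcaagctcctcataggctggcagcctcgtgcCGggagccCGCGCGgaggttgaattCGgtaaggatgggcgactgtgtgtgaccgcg
Xiap: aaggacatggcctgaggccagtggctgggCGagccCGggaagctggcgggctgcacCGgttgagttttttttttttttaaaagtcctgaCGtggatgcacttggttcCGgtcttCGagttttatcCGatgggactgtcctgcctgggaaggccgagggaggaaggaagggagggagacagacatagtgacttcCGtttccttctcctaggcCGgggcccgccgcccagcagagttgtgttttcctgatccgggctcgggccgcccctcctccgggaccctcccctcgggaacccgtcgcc
Bex2: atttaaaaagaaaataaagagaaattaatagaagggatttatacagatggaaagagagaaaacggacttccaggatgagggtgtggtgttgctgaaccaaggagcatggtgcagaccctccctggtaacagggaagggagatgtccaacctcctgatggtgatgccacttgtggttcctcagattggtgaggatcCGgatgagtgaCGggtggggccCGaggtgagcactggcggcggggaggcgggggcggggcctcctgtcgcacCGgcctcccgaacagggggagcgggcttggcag
Parg: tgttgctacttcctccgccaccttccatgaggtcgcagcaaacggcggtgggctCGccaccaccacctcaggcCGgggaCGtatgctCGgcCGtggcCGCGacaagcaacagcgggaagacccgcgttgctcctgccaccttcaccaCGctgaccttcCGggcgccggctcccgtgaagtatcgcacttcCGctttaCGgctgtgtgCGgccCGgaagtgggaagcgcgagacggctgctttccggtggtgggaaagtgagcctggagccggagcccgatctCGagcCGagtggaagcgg
Zrsr1: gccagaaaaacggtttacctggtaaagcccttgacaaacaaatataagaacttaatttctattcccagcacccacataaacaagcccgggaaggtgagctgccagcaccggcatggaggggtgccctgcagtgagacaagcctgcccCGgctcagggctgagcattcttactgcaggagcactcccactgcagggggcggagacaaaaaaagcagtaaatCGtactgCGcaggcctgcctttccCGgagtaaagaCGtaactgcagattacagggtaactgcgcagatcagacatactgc
Cdkn2a: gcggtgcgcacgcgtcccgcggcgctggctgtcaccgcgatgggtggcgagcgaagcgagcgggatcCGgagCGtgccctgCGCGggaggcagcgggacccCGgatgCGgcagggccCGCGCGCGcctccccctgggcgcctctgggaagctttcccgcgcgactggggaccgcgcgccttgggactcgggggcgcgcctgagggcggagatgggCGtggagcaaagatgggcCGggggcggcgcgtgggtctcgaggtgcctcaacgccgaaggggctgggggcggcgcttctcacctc
Every placed promoter of the series (100%) holds the motif CCGG, against 52.8% of the 32851 promoters of the table. The motif reads the same on both strands. Both the enzyme and the placement by CpG spacing decide which promoters can be seen here.

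The retired libraries were shallower than the virgin ones. Reads summed over CpGs were 24451074 in retired stem, 17702302 in retired progenitor and 17513287 in retired mature, against 51818940 to 117922522 in virgin libraries, and the median coverage of a CpG was 13, 10 and 10 reads against 31 to 70. The retired files also have 6 columns where the virgin files have 4. Age, past pregnancies, depth and file layout therefore cannot be told apart for the retired libraries. Among the libraries compared, 877728 CpGs were read at least 5 times in each, and reads were summed in 95094 tiles of 1000 bp (median 4 CpGs) and in 6206 promoters (median 8 CpGs). Median reads in a tile were 96, 72 and 71 in the retired libraries and 185 to 431 in the virgin ones. A read that covers several CpGs is counted at each of them and may be a PCR copy of another, so the intervals given below cover counting error only.

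Which libraries were most alike mostly did not follow the cell type labels. After thinning reads at each CpG to the lowest coverage among the 9 libraries, the mean absolute difference over 22904 tiles of middle level (20 to 80% in the pregnant libraries of the series, which the comparison does not use) was the measure. Its counting error was not estimated, and the virgin libraries of a label also differ in age. The order of near values is therefore loose and gives no verdict on the labels. Retired stem was nearest to week 9 virgin mature (10.5 points) and farther from both virgin stem libraries (12.4 and 13.8 points). Retired progenitor was nearest to week 3 virgin mature (10.3 points), closely followed by week 9 virgin progenitor (10.4 points). Retired mature was nearest to week 3 virgin progenitor (11.6 points), with 12.3 and 13.1 points to the virgin mature libraries. None of the 3 was nearest to a virgin library of its own label. Most virgin libraries did not follow their labels either. Week 3 virgin mature was nearest to week 9 virgin progenitor (9.28 points, against 11.4 to week 9 virgin mature), and week 3 virgin progenitor to week 9 virgin mature (9.22 points). Only week 9 virgin stem was nearest to the virgin library of its own label (10.6 points). The retired libraries were also unlike each other, at 13.3 to 14.6 points, where pairs of virgin libraries differed by 9.22 to 12.3 points. Promoters of marker genes gave little check of the labels, since most of those measured were near 0% in all cell types. Gata3, which specifies luminal cells, averaged 0.13% in virgin libraries, and the basal and stem cell genes at most 1.42%. Prom1, the other luminal gene measured, was highest in the stem library of each stage, at 9.51% (week 3 virgin), 17.2% (week 9 virgin) and 11.9% (retired). The luminal cell types had 4.59 to 4.70%, 6.29 to 6.84% and 1.94 to 6.32%, over 5 CpGs. Of the 25 basal and stem cell genes 4 were measured, of the 25 hormone receptor and luminal genes 2, and of 18 immune genes 0.

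At promoters of middle level the retired libraries scattered more than the virgin ones, at equal read numbers for each CpG. Thinning drew reads at each CpG separately, so a read covering several CpGs was not kept or dropped as a whole. Equal counts are therefore not equal numbers of DNA molecules, and depth was not fully evened out. For 128 X-linked promoters (10 to 60% in pregnant libraries) the median distance of a library from the virgin mean was 8.17 points in retired stem, 7.9 in retired progenitor and 8.53 in retired mature, against 3.39 to 4.69 points in the virgin libraries, each set against the other virgin libraries. For 90 autosomal promoters of this level it was 5.91, 6.91 and 6.97 points against 3.25 to 4.75. In the 22904 tiles it was 7.69, 7.88 and 8.02 points against 5.53 to 7.35. In all 3 kinds of feature every retired library lay farther out than every virgin library. At 5 imprinted promoters retired stem and mature lay at 13.2 and 12.4 points and retired progenitor at 3.42, within the 2.26 to 7.18 points of virgin libraries. This scatter went in both directions: the median difference of the X-linked promoters was only 1.39 points, with a middle range from -3.68 to 5.05. The part of this scatter in the differences below was not tested, nor was the part of depth in the scatter.

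**Figure D1:**
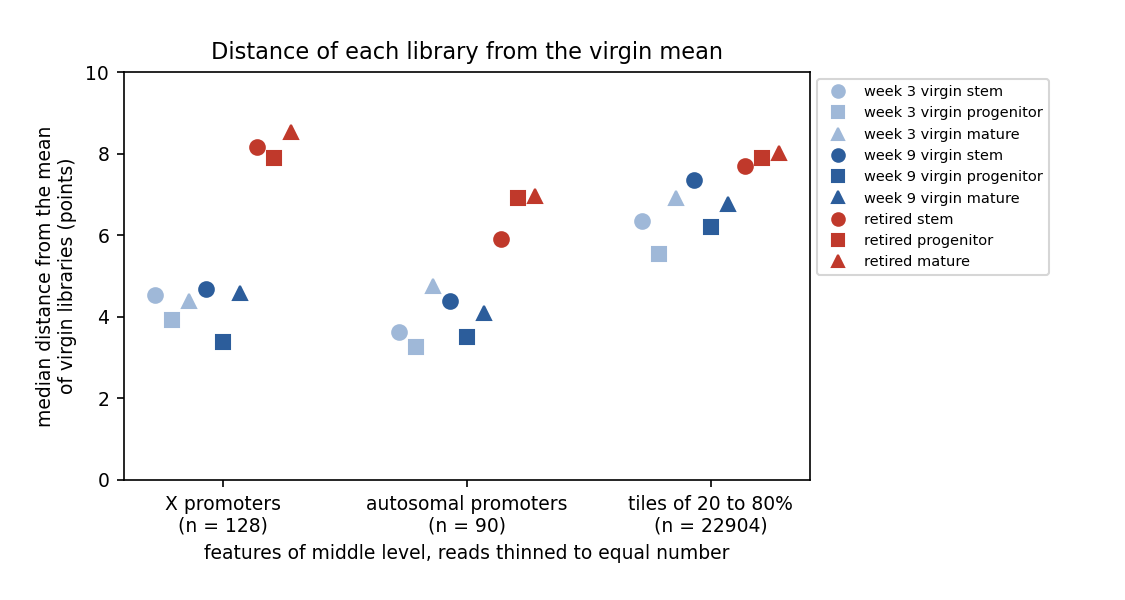
Median distance in percentage points of each library (points, by cell type and stage) from the mean of the virgin libraries, other than itself, for X-linked promoters, autosomal promoters and tiles of middle level, with reads thinned to equal number. The 3 retired libraries lie at 7.9 to 8.53 points for X-linked promoters and all virgin libraries at 4.69 points or less.

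The first question was whether retired breeders had another overall level of methylation. Mean CpG methylation was 51.0% in retired stem, 51.5% in retired progenitor and 51.6% in retired mature, and the virgin libraries had 50.7 to 51.8% with a median of 51.0%. The groups overlapped throughout. Retired libraries averaged 51.4% ± 0.332 (SD, n = 3) and virgin libraries 51.2% ± 0.431 (n = 6), a difference of 0.237 points (two-sided exact permutation p = 0.556). The value depended on the weighting: with reads pooled over CpGs, so that deeply read CpGs count more, retired libraries were higher by 3.16 points (exact permutation p = 0.0741). Omitting single libraries gave 0.041 points (without week 9 virgin mature) to 0.468 points (without retired stem). With 27 ways to choose the retired library of each cell type, p cannot be below 0.037. The X chromosome, with 39738 CpGs, averaged 77.1% ± 0.305 (n = 3) in retired and 76.9% ± 0.558 (n = 6) in virgin libraries (difference 0.234 points, exact p = 0.556).

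Tiles were next split by their level in the pregnant libraries and by CpG number. CpG-dense tiles of middle level, 986 tiles with 10 or more CpGs, had the lowest p. They stood at 47.2% in retired stem, 49.5% in retired progenitor and 49.95% in retired mature, against 46.1, 46.6 and 48.3% as the lowest, median and highest virgin library. Retired progenitor and retired mature lay above all virgin libraries and retired stem did not. The difference was 1.86 points (48.9% ± 1.48, n = 3, against 47.0% ± 0.982, n = 6), with an exact permutation p of 0.111. The 12676 dense tiles under 20% had 1.49% ± 0.152 (n = 3) against 1.33% ± 0.105 (n = 6), a difference of 0.158 points (exact p = 0.185). In the 21918 sparse tiles of middle level, with 3 to 9 CpGs, the difference was 0.817 points (exact p = 0.593). It was 0.222 points in 13665 sparse tiles under 20% (exact p = 0.704), 0.179 points in 40618 sparse tiles over 80% (exact p = 0.741) and -0.109 points in 5231 dense tiles over 80% (exact p = 0.667). Read discordance, the chance that a pair of reads of a library at a CpG differ, was 13.3% in retired stem, 12.5% in retired progenitor and 13.6% in retired mature and 13.0 to 15.2% in virgin libraries, a difference of -1.06 points (exact p = 0.185). After Benjamini-Hochberg adjustment over the 9 exact permutation tests the values were 0.556 to 0.741. A single level at the smallest possible p would not have passed this adjustment, so the tests say little. The differences of the dense tiles of middle level, the dense tiles under 20% and read discordance were larger than the SD of either group.

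No tile passed the test. With a quasi-binomial logistic regression, 0 of 95094 tiles (0%) reached both 10 points and 0.05 after Benjamini-Hochberg adjustment. The smallest adjusted p was 0.923. At an unadjusted p under 0.05 there were 4912 tiles (5.17%), and limma on log2 ratios called 0, with 13532 at an unadjusted p under 0.05. In 94.6% of tiles the difference was within 10 points, with 2852 tiles at least 10 points higher and 2293 at least 10 points lower in retired libraries. All 3 retired libraries lay above all 6 virgin libraries in 2998 tiles (3.15%) and below them in 3184 tiles (3.35%). With reads thinned to equal number these counts fell to 1021 and 665. With a difference of at least 10 points there were 702 such tiles above (0.738%) and 446 below (0.469%), and after thinning 419 and 298. Of these 702 and 446 tiles, 69.8 and 52.9% were of middle level, against 24.1% of all tiles, and only tiles away from 0 and 100% have room for a change either way.

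Of the 10 tiles named by size of difference, the one next to Cdkn2a had the smallest spread among retired libraries. Cdkn2a encodes the cell cycle inhibitor Ink4a and the p53 activator Arf, which restrain division in ageing and stressed cells. The tile, chr4:88939001-88940000, has its centre 1.0 kb downstream of the placed Cdkn2a start, and no gene model of mm9 was at hand to say whether it is intronic. Its methylation was 82.1% in retired stem, 84.2% in retired progenitor and 82.4% in retired mature, against 45.0, 55.4 and 58.2% as the lowest, median and highest virgin library. The groups were far apart and the retired libraries within 3 points of each other. Wilson 95% intervals were 71.3 to 89.4%, 72.6 to 91.5% and 69.7 to 90.4%, from 67, 57 and 51 reads. Retired libraries averaged 82.9% ± 1.16 (SD, n = 3) and virgin libraries 54.0% ± 4.96 (n = 6), a difference of 28.9 points. In the quasi-binomial model over all tiles its unadjusted value was 0.000179 and its adjusted p 0.923. Pregnant libraries of the series had 51.8 to 78.9% with a median of 56.2%, so the retired libraries lay above these too. It was the only named tile of which this held. At every other named tile the pregnant range overlapped the retired values. Pregnant libraries had 48.4 to 96.0% at chr8:96929001-96930000 and 26.8 to 96.6% at chr9:36042001-36043000, for example.

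All of this rests on 3 CpGs. At position 88939428 retired libraries had 75, 90 and 78.9% (stem, progenitor and mature) against 39.2 to 70.2% in virgin libraries, and at 88939434 they had 75, 90 and 73.7% against 32.7 to 48.0%. Each retired library had 16 to 20 reads at these neighbours. The third CpG, 88939504, had 88.6, 70.6 and 100% against 58.7 to 76.8%, so retired progenitor overlapped the virgin range there. Smaller differences or none were seen around it. A tile of 9 CpGs farther downstream, chr4:88920001-88921000, had 2.0, 6.5 and 7.6% in retired stem, progenitor and mature against 0.8 to 3.4% in virgin libraries, so that retired progenitor and mature lay above the virgin range. The Cdkn2a promoter printed above had 0.2% in virgin and 0.15% in retired libraries over 12 CpGs. The next tile, chr4:88940001-88941000, with 33 CpGs, averaged 0.9 and 0.7%, and the one after it, with 18 CpGs, 0.9 and 1.3%. The tile with 13 CpGs 16.0 kb upstream had 0.2 and 0%.

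Other tiles higher in retired breeders lay far from any placed gene start. Only 7141 of the 27025 genes with a promoter sequence were placed, so a start that was not placed may lie nearer. The largest difference, 30.5 points, was at chr9:47279001-47280000 (4 CpGs, 103.2 kb from Gm31816), with 82.5, 72.7 and 94.6% in retired stem, progenitor and mature. The virgin libraries there ran from 28.9 to 69.6% with a median of 55.7%, and both virgin stem libraries were among the lowest. With every CpG weighted equally the groups overlapped at this tile (difference 26.7 points). At chr8:96929001-96930000, a tile of 10 CpGs 127.4 kb from Cpne2, retired libraries had 80.8, 96.8 and 73.6%, above the tight virgin range of 53.5 to 64.0% (median 58.1%, unadjusted value 0.000542 and adjusted p 0.923 in the same model). The remaining pair, chr9:62210001-62211000 and chr12:87508001-87509000, differed by 25.9 and 25.2 points.

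Among tiles lower in retired breeders, chr9:36042001-36043000 had the largest difference. Retired stem had 35.9%, retired progenitor 48.0% and retired mature 47.7%, against 67.1, 80.6 and 89.3% as the lowest, median and highest virgin library. Of its 6670 reads over all libraries, 4940 fell on 1 of its 4 CpGs. The difference of -34.8 points became -17.2 points with equal weight for every CpG and -1.77 points without CpGs above the 99th percentile of coverage. At chr9:113890001-113891000, 45.4 kb from the start of Fbxl2, which encodes an F-box protein of a ubiquitin ligase, retired libraries had 12.2, 12.1 and 20.8% and virgin ones 29.2 to 66.3% (median 40.2%). That difference was -28.0 points and stayed at -28.6 points with equal weights. The tile chr9:56107001-56108000 (158.4 kb from Peak1) differed by -28.9 points, chr7:112186001-112187000 by -25.7 points and chr17:17012001-17013000 by -27.6 points. The last of these had 1905 of its 2759 reads at 1 CpG, and at equal weights it differed by -8.32 points with overlapping groups. The tile chr7:112186001-112187000 had 2874 of its 6265 reads at 1 of 3 CpGs and 2819 at another. Its difference was -19.9 points at equal weights. All 10 tiles were picked because their groups do not overlap, so their values are a description. In 8 of the 10 the groups still did not overlap at equal weights, a check chosen after the values were seen.

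**Figure D2:**
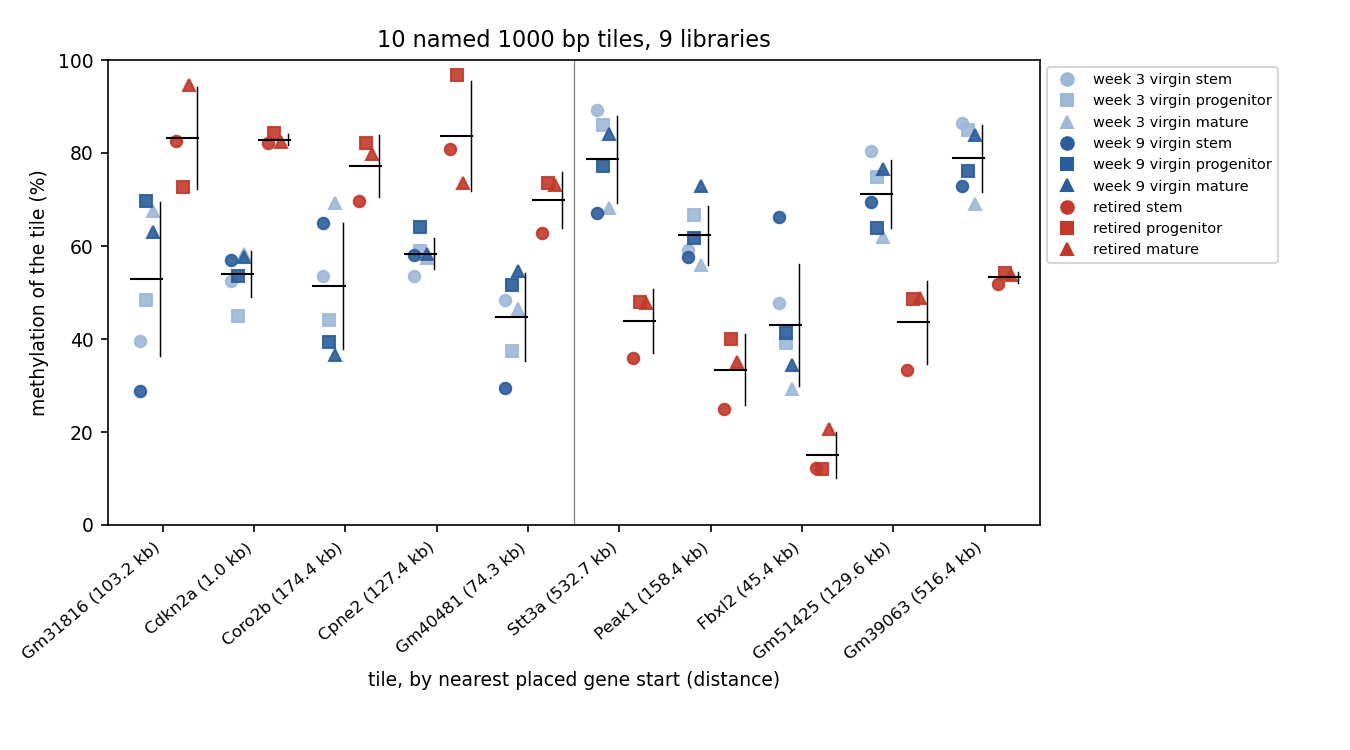
Methylation (%) of the 5 tiles highest and the 5 tiles lowest in retired against virgin libraries, by nearest placed gene start, with 1 point per library and black bars for the mean ± SD of 6 virgin and 3 retired libraries. At the tile 1.0 kb from Cdkn2a the retired points lie at 82.1 to 84.2% and the virgin points at 45.0 to 58.2%.

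Large differences shared by a pair of cell types kept their direction in the third in fewer than 50% of readings. Tiles that differed by at least 20 points the same way in a pair of cell types were read in the third, whose retired and virgin libraries had no part in choosing them. Of 963 such readings 378, or 39.3%, had the same direction in the third cell type. The lowest share was in stem cells: of 265 tiles higher in retired progenitor and mature cells, 77 (29.1%) were higher in retired stem, with a median difference of -11.4 points, where 45.1% of all tiles were higher. In mature cells 60 of 180 tiles (33.3%) lower in the other cell types were lower too (median difference 8.79 points, and 50.1% for all tiles). The shares were 52 of 124 for tiles lower read in stem cells, 55 of 110 and 52 of 118 for tiles higher and lower read in progenitor cells, and 82 of 166 for tiles higher read in mature cells. Requiring 30 points gave 32.5% and thinned reads 38.0%. The share with the same direction and at least 10 points was above that of all tiles in all 6 readings. It was 14.0% against 7.57% for tiles higher and 26.6% against 9.30% for tiles lower read in stem cells, 25.5% against 8.38% and 26.3% against 6.78% in progenitor cells, and 28.3% against 10.1% and 19.4% against 7.47% in mature cells. The chosen tiles thus differed by 10 points more often than all tiles did, while the direction was the same in 50% or fewer. Only 24.1% of all tiles were of middle level, and the others have less room to differ by 10 points. The chosen tiles were not matched to all tiles by level, so the higher shares cannot show recurrence. In stem cells the median of -11.4 points means that at least 50% of those tiles were over 10 points lower in retired stem.

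**Figure D3:**
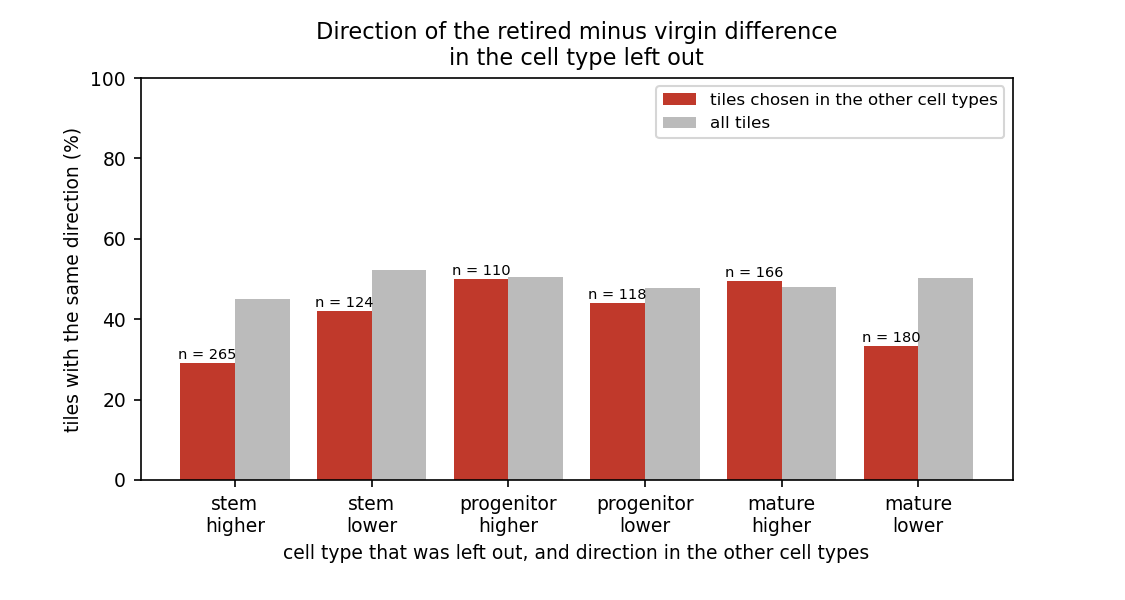
Share (%) of tiles with the same direction of the retired minus virgin difference in the cell type left out, for tiles chosen by at least 20 points in the other cell types (red, n above the bar) and for all tiles (grey). The red bars run from 29.1% (stem, higher) to 50% (progenitor, higher) against 45.1 to 52.2% for the grey bars.

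Promoters were tested in the same way. None of 6206 promoters (0%) passed the quasi-binomial test (smallest adjusted p 0.734). At an unadjusted p under 0.05 there were 222 promoters (3.58%), and limma on log2 ratios called 17, 13 higher and 4 lower, with 3300 at an unadjusted p under 0.05, and 1 after thinning. Most promoters had no room to be lower: 5876 had under 5% in virgin libraries. All 3 retired libraries lay above all virgin libraries at 58 promoters (0.935%) and below them at 338 (5.45%). In 312 of the 338 every retired library was at 0%, and with thinned reads the counts were 16 above and 11 below.

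X-linked promoters were 139 of the measured set and 6 of the 20 promoters named here, which had at least 30 reads in every library and groups that did not overlap. Mtm1, a phosphoinositide phosphatase needed in muscle, had the largest difference of the 20. It stood at 48.98% in retired stem, 50% in retired progenitor and 55.9% in retired mature, against 27.4, 31.4 and 38.9% as the lowest, median and highest virgin library, so the groups did not overlap. Retired libraries averaged 51.6% ± 3.73 (n = 3) and virgin libraries 32.2% ± 4.67 (n = 6), a difference of 19.5 points over 4 CpGs. The quasi-binomial adjusted p was 0.734 for this and each of the other named promoters. Of the 20, limma on log2 ratios called 5, with adjusted p of 0.0142 for Mtm1, 0.0225 for Bex2, 0.0242 for LOC108167929, 0.0355 for Parg and 0.0375 for Gm38699, and with thinned reads it called none of these 5. Retired mature had only 34 reads at Mtm1, with a Wilson 95% interval of 39.5 to 71.1%. The CpGs of Mtm1 did not all differ the same way: the CpG at -12 from the start was lower in retired libraries (0, 0 and 8.3% against 13.3 to 20.4%), while those at 4 and 16 were higher by 37.6 and 42.8 points. The shallowest library had only 5, 9 and 5 reads at the CpGs at -12, 4 and 16, so their levels are loose. Distances are in bases from the gene start, negative upstream.

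Hprt, a purine salvage enzyme, had 32.5, 37.6 and 38.1% in retired stem, progenitor and mature and 20.03 to 29.2% in virgin libraries (median 24.1%), a difference of 11.6 points. Of its 9 CpGs 8 were higher and 1 lower in retired libraries. With only CpGs of at least 10 reads in each library, the difference was 0.16 points. Siah1b, a ubiquitin ligase, had 42.2, 39.5 and 47.3% against 21.8 to 36.9% (median 32.6%), a difference of 12.3 points that was 1.36 points at 10 reads and 20.18 points with thinned reads. Xiap, an inhibitor of caspases, was lower in retired breeders. Its levels were 23.8% in retired stem, 27.03% in retired progenitor and 23.4% in retired mature, and the virgin libraries lay close together at 35.4 to 39.2% (median 37.1%). The retired mean was 24.7% ± 2 (n = 3) and the virgin mean 37.2% ± 1.28 (n = 6). The difference was -12.4 points, with an unadjusted value of 0.00183 in the model over all promoters, and -25.13 points at 10 reads. Of the 7 CpGs from -221 to -125, 6 were lower, and that at -143 had 15.4, 34.9 and 15.6% against 46.9 to 56.9%, while the CpGs at -57 and -39 were higher on average in retired libraries. Bex2, a small brain-expressed protein, had 21.6, 13.7 and 19.2% against 26.6 to 42.0% (median 33.2%), and all 4 of its CpGs were lower. Pdha1, a subunit of pyruvate dehydrogenase, differed by -7.94 points, by -13.11 points at 10 reads, and by -4.65 points with overlapping groups at equal CpG weights.

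X-linked promoters lay outside the virgin range in both directions. Over all 139 of them 6 were above and 4 below in every retired library, where all promoters had 0.935% above and 5.45% below. Of the 90 autosomal promoters of middle level 7 were above and 1 below. Of the 139 X-linked promoters, 16 were at least 10 points higher and 7 at least 10 points lower on average, and the median difference was 1.04 points. Autosomal promoters had a median difference of -0.11 points (n = 6067). The median X-linked promoter had 26.1% in retired stem, 29.6% in retired progenitor, 26.7% in retired mature and 26.02 to 28.8% in virgin libraries.

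On autosomes Parg, which removes poly(ADP-ribose) chains from proteins after DNA damage, was higher in retired breeders. It had 45.5, 39.4 and 35.7% in retired stem, progenitor and mature against 21.0, 25.4 and 31.0% as the lowest, median and highest virgin library. Its promoter held partly methylated CpGs upstream and unmethylated CpGs around the start. The 9 CpGs from -196 to -92 averaged 34.8 to 57.4% in virgin and 45.7 to 69.0% in retired libraries, and the 6 CpGs from -60 to 37 had 0.4% or less in both. Retired libraries averaged 40.2% ± 4.97 (n = 3) and virgin libraries 25.8% ± 4.49 (n = 6), a difference of 14.4 points that was 7.91 points, with overlapping groups, at equal CpG weights. At LOC108167929 the weighting decided the direction. Its difference of 17.8 points came with 2849 of 5027 reads at 1 of 9 CpGs, and it was -3.23 points at equal weights, -0.22 points without the CpGs above the 99th percentile of coverage and 0.20 points with thinned reads.

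The other named promoters that were higher were Gm34736 (13.9 points), 4933428G20Rik (10.9), Gm38699 (10.6) and Gm12404 (9.69). Gm38699 was the most even of them, with 25.6, 25.5 and 25.1% in retired libraries and 11.8 to 17.9% in virgin ones. The named autosomal promoters lower in retired breeders started from low levels, with virgin means of 13.7% or less. Duoxa1, a maturation factor of dual oxidase, had 2.82, 2.99 and 2.9% against 6.56 to 12.8%, and Ncaph2, a condensin subunit, 1.73, 1.15 and 1.59% against 2.53 to 7.87%. With thinned reads their differences of -6.42 and -4.70 points were -2.98 and -2.04 points. Ccdc24 differed by -7.99 points, Gm12992 by -5.13 and Chga, the granule protein chromogranin A, by -3.83. At 8430432A02Rik and Mycbpap the retired libraries had no methylated read. For Mycbpap, 0 of 45 reads in retired progenitor allows up to 6.67%, and the difference of -3.47 points was -1.96 points without week 9 virgin stem and -2.02 points without retired stem. In 14 of the 20 promoters the groups did not overlap at equal CpG weights either.

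**Figure D4:**
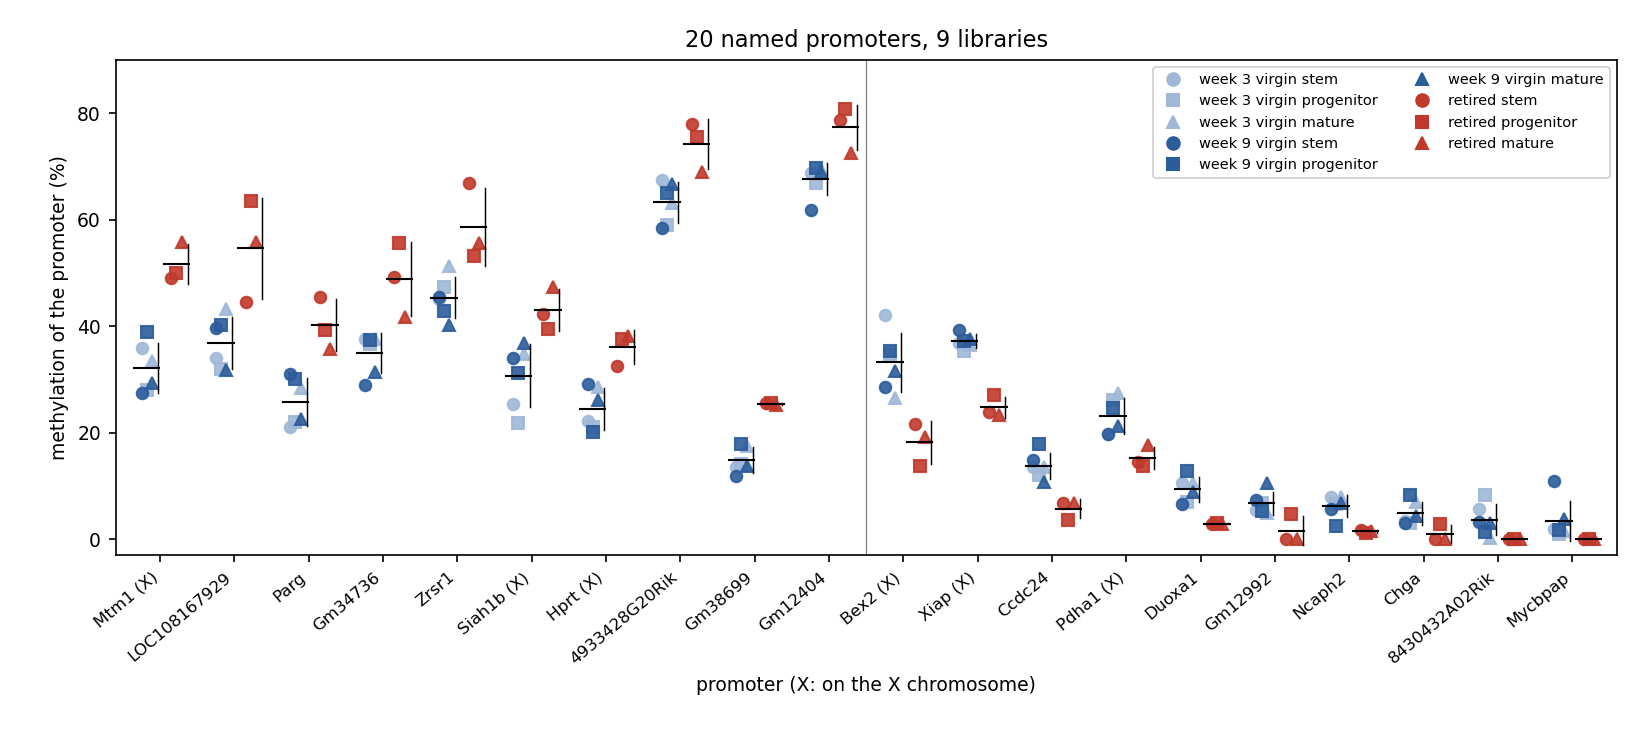
Methylation (%) of the 10 promoters highest and the 10 lowest in retired against virgin libraries, 1 point per library, black bars for the mean ± SD of 6 virgin and 3 retired libraries, and X for genes on the X chromosome. At Xiap the virgin points lie within 35.4 to 39.2% and the retired points at 23.4 to 27.03%.

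**Figure D5:**
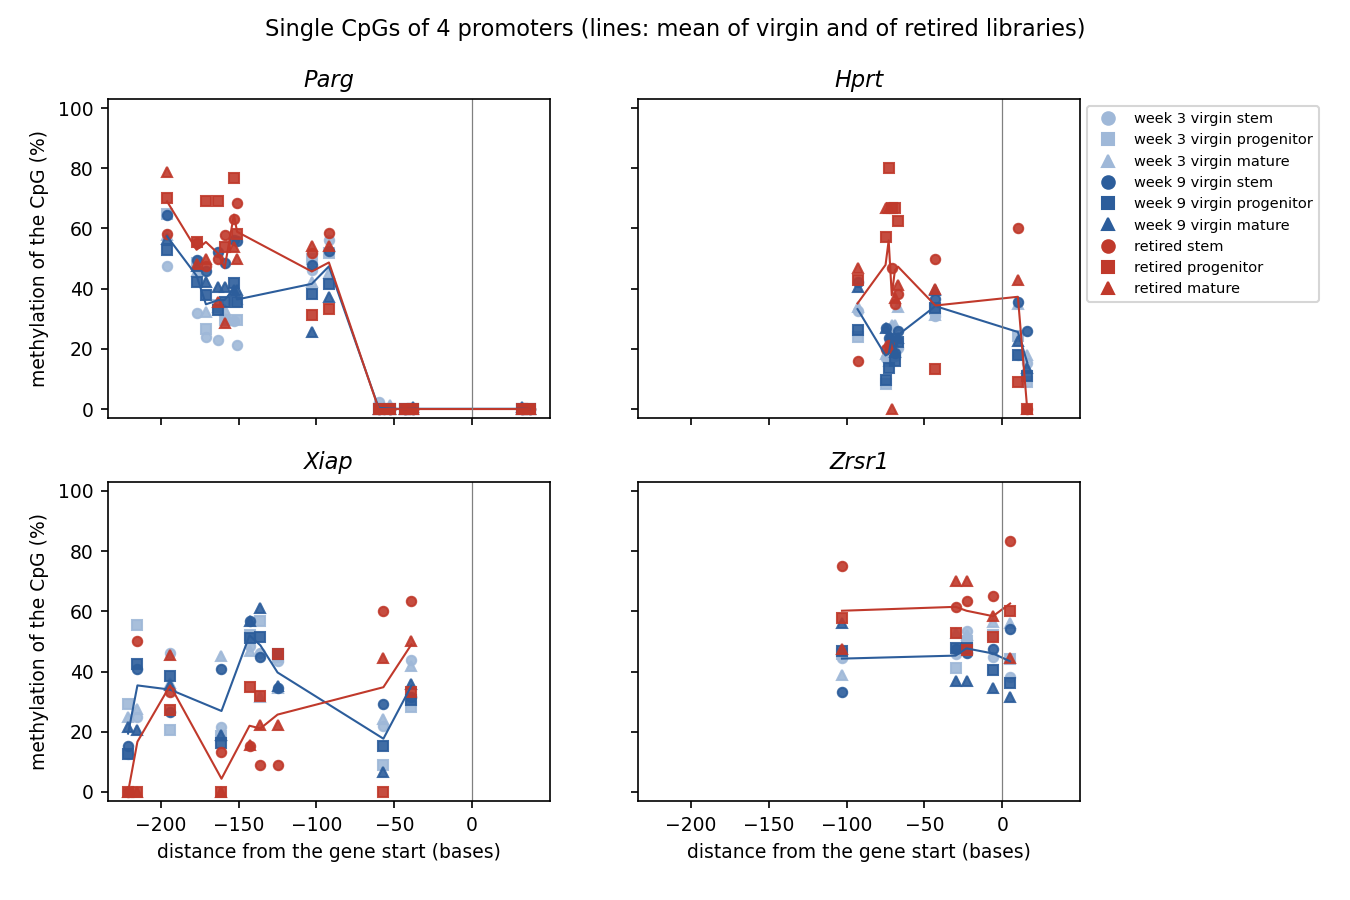
Methylation (%) of single CpGs against the distance in bases from the gene start in 4 promoters, with 1 point per library and lines through the mean of virgin (blue) and retired (red) libraries. In Parg both lines stay near 0 from -60 on, and in Xiap the retired line is below the virgin line at -125 and above it at -57.

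Promoters of imprinted genes, where methylation can lie on 1 parental copy, were a listed group. Of 38 listed genes 9 were measured. In virgin libraries 4 of the 9 had under 5%, so the windows measured there held little methylation on either copy. Zrsr1, methylated on the maternal copy, had 66.8% in retired stem, 53.2% in retired progenitor and 55.7% in retired mature against 40.2, 45.3 and 51.2% as the lowest, median and highest virgin library, and all 5 CpGs were higher. That difference was 13.2 points (58.6% ± 7.28, n = 3, against 45.4% ± 3.78, n = 6). Other imprinted promoters did not follow it. Igf2r, a receptor that clears insulin-like growth factor, had 55.9, 43.3 and 38.5% against 33.3 to 46.1%. Mcts2 had 21.4% in retired stem, 48.8% in retired progenitor and 56.7% in retired mature, where virgin libraries had 39.1 to 47.4%, so retired libraries lay on both sides. Plagl1, a zinc finger factor, had 41.7, 4 and 54.05% against 18.1 to 34.7%, and Mkrn3 8.42, 35 and 2.27% against 14.0 to 28.2%. At Grb10, an inhibitor of insulin signalling, all retired libraries were at 0% and virgin libraries at 0.13 to 1.75%. Gnas, Zdbf2 and Ascl2 were under 5% on average in both groups. The list had 1 promoter above (Zrsr1) and 1 below (Grb10) in every retired library, against 0.935 and 5.45% of all promoters, and a median difference of -0.13 points, against -0.11 over all promoters.

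Most genes of the mammary lists were not measured, and those measured had under 5% in virgin libraries, with the exception of Prom1. No promoter of the 18 lists was called by the quasi-binomial test (0 of each list) or among the 17 of limma, and 4 list entries had an unadjusted p under 0.05: 1 in Wnt signalling, 1 imprinted and 2 developmental factors, where 3.58% of all promoters did. Of 25 hormone receptor and luminal genes 2 were measured, with Prom1, a membrane protein of luminal and progenitor cells, at 4.59 to 17.2% in virgin libraries (mean 8.19%) and 11.9, 6.32 and 1.94% in retired stem, progenitor and mature. Prolactin and Stat5 signalling had 10 of 18 measured, all under 5%, with Stat5a, the transcription factor of milk genes, at 0% in all 9 libraries (0 of 94 reads in the shallowest allows up to 3.19%), Jak2 0.29% in virgin and 0% in retired libraries and Igf1r 0.36 and 0.13%. Among milk genes 2 of 20 were measured, Mfge8 (0.28 and 0.16%) and Fasn (0.09 and 0%). Basal and stem cell genes had Oxtr, the oxytocin receptor, at 1.42 and 0.49% and Vim at 0.19 and 0.61%. Of 11 cell cycle inhibitors 4 were measured, among them Cdkn1a (0.9 and 1.45%, with 23 reads in the shallowest library) and Cdkn1b (0.27 and 0%). The enzyme gene Dnmt3a had 0.21 and 0%, where 0 of 178 reads allows up to 1.69%. Promoters of Elf5, Esr1, Pgr, Prlr, Foxa1, Krt5, Krt14, Krt8, Krt18 and Trp63 were not analysed here.

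Signalling lists were as low. TGF-beta signalling had 11 of 29 genes measured, with Inhbb at 1.8% in virgin and 3.95% in retired libraries and Tgfb1 at 1.77 and 1.4%, and 1 promoter below the virgin range in all retired libraries, against 5.45% of all promoters. Wnt signalling had 21 of 44 measured, with Wnt6 at 0.18 and 1.67% and Wnt3 at 0.8 and 0%, and 2 promoters below, which is to be read against the same 5.45%, mostly promoters with all retired libraries at 0%. Notch signalling had 11 of 21 (Maml1 0.95 and 0%, Hes6 0.32 and 0.88%) and Hedgehog signalling 7 of 14 (Dhh 1.49 and 0.64%, Ihh 1.15 and 0.52%). In each of these 4 lists the median difference was within 0.3 points of 0. All their measured promoters had under 5% in virgin libraries.

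Most developmental promoters were as low, with 8 of 9 measured Hox genes (of 39) and 30 of 31 other developmental factors under 5% in virgin libraries. The exception among Hox genes, Hoxa5, which patterns the trunk, had 26.96% in retired stem, 6.19% in retired progenitor and 16.4% in retired mature against 9.85 to 14.8% in virgin libraries. Hoxd9 had 5.19 and 3.42% on average in retired and virgin libraries. The exception among the other developmental factors (31 of 97 measured) was Tbx1, which had 77.1, 58.1 and 59.3% against 32.9, 50.6 and 72.7% as the lowest, median and highest virgin library, a difference of 13.2 points with overlapping groups. Zic1 had 25, 0 and 12.9% against 0 to 5.95%. The 6 measured germline genes of 40 were mostly methylated, with Mael, a silencer of transposons, at 94.7% in retired and 90.6% in virgin libraries and Hormad1, a meiotic protein, at 95.3 and 91.5%. In the list of methylation enzymes and readers, with 8 of 20 measured, the X-linked reader Zbtb33 had 28.4 and 22.5% and Gadd45b 0 and 0.24%. Of 10 genes with published age markers 5 were measured. Elovl2, an enzyme of fatty acid elongation, had 0.86, 1.42 and 7.22% in retired stem, progenitor and mature against 0.39 to 3.23% in virgin libraries, and Prima1 0, 0 and 5.85% against 0 to 1.68%, so only retired mature stood above the virgin range. Endothelial genes (2 of 13 measured) had Kdr at 1.03% in virgin and 0.42% in retired libraries and Flt1 at 0.27 and 0%. Stromal and fat cell genes (2 of 15) had Lep, encoding leptin, at 32.7, 66 and 69.1% in retired libraries against 21.0 to 63.9%, and Pparg at 3.77% in virgin and 2.94% in retired libraries.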

How the data were processed

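Per the labels' protocols, MspI-cut genomic DNA was bisulfite-treated and sequenced. For every CpG the authors deposited methylated and total read counts as text (build mm9, per the submitters' processing notes). The retired files add a deposited score, checked here to be the methylated share multiplied by 1000 (differing by at most 0.5) and not used further. Aligner and caller: not given in the sources used here.

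CpGs with at least 5 reads in all 9 files were kept. Reads were summed per 1000 bp tile and per promoter with at least 3 such CpGs. Depth ran from 17513287 to 117922522 reads. A quasi-binomial logistic regression (cell type plus state) was fitted, its dispersion moderated by limma's empirical Bayes step with a floor of 1. F-test p-values were adjusted (Benjamini-Hochberg) over every tile or every promoter. A call needed an adjusted p under 0.05 and 10 points. The code was tested on simulated data. Differences are means over cell types of retired minus virgin. Library levels were compared by exact permutation within cell types.

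RefSeq promoters (GRCm38.p6) were placed by at least 6 CpGs at matching spacing, with no extra listed CpG and 1 place on their chromosome: 8029 of 18541 sequences with enough CpGs. As a control, 433 of 17846 (2.43%) found a place on a wrong chromosome. A total of 50 out of the table's order were dropped, a step chosen after seeing the data, which left 7141 genes. Of the measured promoters 1198 share a CpG with another.

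Named tiles (5 per direction, at least 50 reads in every library) and promoters (10 per direction, at least 30 reads) have all retired libraries outside the virgin range and the largest differences. From each of 18 lists the 2 measured members with the largest difference are named, with 14 genes of mammary identity where measured and all imprinted members. The comparison, members, lists and rules were chosen with earlier results of these data known. Alternatives were 10 reads, 20 points, 500 bp tiles, thinning, removal of deep CpGs or of sex and mitochondrial chromosomes, limma, no block, all 18 libraries, single virgin stages, pooled reads and leaving out each library. Python 3.11.15 (numpy 2.4.6, scipy 1.17.1, pandas 2.3.3, matplotlib 3.10.9) and R 4.3.3 (limma 3.58.1, statmod 1.5.0) were used.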

Additional observations from a re-analysis of the deposited data

Results flagged for a closer look

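In 39 groups of 6 virgin libraries, 2 held a library far from the rest, where chance gives about 1 in 20 groups. At the Gm12404 promoter week 9 virgin stem had 61.9%, below the other virgin libraries, and at the Mycbpap promoter it had 10.9%, above them.

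The retired libraries of different cell types lay on opposite sides of their own virgin libraries in 4 of the 6 tile classes. In sparse tiles under 20% the retired minus virgin difference of stem cells less that of mature cells was -4.10 points, and progenitor less mature -2.68 points. In sparse tiles of 20 to 80% stem minus progenitor was -3.15 points and stem minus mature -4.56 points. In sparse tiles over 80% stem minus mature was 1.42 points and progenitor minus mature 1.59 points. In dense tiles over 80% progenitor minus mature was 0.904 points. With 1 retired library per cell type these differences were not tested.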

How the results depend on the processing

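Of 813 alternative values for 42 results, 791 kept their direction and side of the threshold or their count. Most of these results were the 10 tiles and 20 promoters picked because their groups do not overlap. Omitting a library or using a single virgin stage could not reverse them. The settings of 20 points, no block, all 18 libraries and dispersion trend left their differences unchanged by construction. The number kept is therefore no measure of robustness. The count of called tiles was 0 under every alternative run, with smallest adjusted p from 0.0689 (all 18 libraries in the fit) to 0.971, and omitting any 1 library gave 0 to 0 called tiles and promoters. Called promoters numbered 17 with limma on log2 ratios and 1, Xiap, with limma on thinned reads, a setting chosen after seeing the data, as were the dispersion trend and equal CpG weights. By construction the log2 ratio with a pseudocount of 1 depends on read number where no read is methylated, and the retired libraries have fewer reads. The LOC108167929 promoter gave -0.22 points without the deepest CpGs and -3.23 points with equal CpG weights.

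Within the same direction, 10 reads per CpG, thinning or removal of the deepest CpGs moved several named promoters and 1 named tile by over 1.5 times, with the values given beside them, and mean CpG methylation differed by 3.16 points with reads pooled over CpGs. The causes were not tested.

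The class levels that reversed had differences within the spread. Dense tiles over 80% gave 0.061 points with thinned reads, and the cause was not tested. When single libraries were omitted they gave -0.35 to 0.102 points (positive without retired mature). Sparse tiles gave -0.909 to 1.142 points under 20% and -0.179 to 2.102 points at 20 to 80% (negative without retired mature), and -0.113 to 0.68 points over 80% (negative without retired stem, retired progenitor or week 9 virgin mature). The X chromosome gave -0.075 to 0.43 points (negative without retired progenitor). Without 1 retired library the exact test cannot go below 0.111. No paired analysis was possible because the groups compared share fewer than 2 replicate numbers within a cell type. Depth limits promoters near 0, which had a median of 125 to 171 reads in retired libraries.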

Other observations

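The 17 promoters called by limma on all reads hold genes that the account above does not describe. Hic1, a transcriptional repressor silenced by methylation in many tumours, had 79.1, 70.2 and 60.9% in retired stem, progenitor and mature against 27.4 to 67.0% in virgin libraries (difference 20.9 points, limma adjusted p = 0.0192). Alpk3, a muscle kinase, had 57.7, 76.9 and 77.8% against 39.8 to 54.4% (23.4 points, limma adjusted p = 0.00633), with as few as 26 reads in a library. Of X-linked genes, Lage3 differed by 17.7 points, Ccnb3 by 15.0 and Alg13 by 12.4, while Idh3g and Ssr4, which share their measured CpGs, differed by -10.5 points. Topaz1, a germline gene, had 97.6, 100 and 88.2% against 74.8 to 88.5%. With thinned reads none of the genes in this paragraph passed (limma adjusted p = 0.893), and the quasi-binomial test called none of them on any reads.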
